A study of Mus musculus with 18 samples.

Results

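The complement genes that immune and stromal cells of the spleen transcribe, with the receptors for the complement anaphylatoxins, were followed across the 6 groups of the experiment. They are the C1q chain genes C1qa, C1qb and C1qc, the component genes C3 and C4b, the alternative pathway genes Cfb (factor B) and Cfp (properdin), and the receptor genes C3ar1 and C5ar1. They were chosen by gene symbol, as complement made by macrophages and stroma, and the table held all 9 of 9 among 19320 genes with a unique name. The liver transcript Alb (albumin) was read beside them as a check for liver RNA.

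Complement is a cascade of plasma proteins that marks microbes, immune complexes and dying cells. C1q binds antibody or cell debris and starts the classical pathway, in which C4 and C2 form the enzyme that cleaves C3. Factor B forms the corresponding enzyme of the alternative pathway, properdin stabilizes it, and the released C3a and C5a fragments act on the receptors C3AR1 and C5AR1. Most plasma complement comes from the liver, but C1q is made mainly by tissue macrophages, and in the spleen the pathway takes part in the handling of opsonized particles and in B cell responses.

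RNA of 18 spleens from ICR mice aged 10 weeks was sequenced, 3 libraries in each group. Con mice were the controls, given saline and an ordinary diet according to the methods of the study. A10 mice were given 10 mg per kg of alginate oligosaccharide (AOS), a chain of sugar units obtained from seaweed. STZ mice received a single dose of streptozotocin, a toxin of the insulin-making beta cells that models type 1 diabetes, and STZ-A10 mice received STZ and AOS at 10 mg per kg. A10-FMT and Con-FMT mice received STZ and then a microbiota transplant by mouth, with small intestinal content from donors given AOS at 10 mg per kg or from control donors. The donor content of each kind was pooled, so that a transplant and its pool cannot be told apart. The dosing of the A10 and STZ-A10 mice is known only from the sample labels.

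The values are RPKM, read numbers divided by gene length and by the library's mapped reads, so levels can be compared between genes. Read counts are not given, so the depth of each library is unknown and values below 1 RPKM rest on few reads. Between 11532 and 12893 genes reached 1 RPKM in a library, and globin genes took 7.98% to 31.7% of the summed RPKM. Some libraries stood apart. Con replicate 1 held 5154 RPKM of the neutrophil gene S100a8, against 128 to 1315 in the other 17 libraries. Con replicate 2 had the next most S100a8, at 1315 RPKM, and held 258.6 RPKM of testis germ cell genes, against 0.22 to 31.89 elsewhere. A10-FMT replicate 3 had the least of the B cell gene Cd79a (189.9 RPKM, with 508 to 971 elsewhere) and of the follicular chemokine gene Cxcl13 (41.6 RPKM, with 114 to 288 elsewhere), and the most Alb, at 175 RPKM. Genes of the exocrine pancreas, which lies against the spleen, summed to 22.1 to 1626 RPKM in the Con and A10 libraries and to 156 to 18780 in the others. The main results that rest on Con replicate 1 or A10-FMT replicate 3 are given with and without 1 or both of them. From the tests of differences, Con replicate 2 was left out only singly. In whole spleen, fewer cells of a type and less RNA per cell cannot be told apart.

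Alb differed widely between libraries. It was 7.59, 105 and 97.95 RPKM in Con replicates 1 to 3, 25.2, 14.9 and 2.84 in A10, 0.32, 1.45 and 0.95 in STZ, 2.79, 0.25 and 0.1 in STZ-A10, 42.3, 32.6 and 175 in A10-FMT and 8.8, 10.3 and 1.19 in Con-FMT. The STZ and STZ-A10 libraries therefore held little of it, and A10-FMT replicate 3 and Con replicates 2 and 3 held the most. Summed over 19 hepatocyte genes the libraries spanned 26.1 to 346 RPKM (Con), 23.6 to 98 (A10), 6.89 to 10.7 (STZ), 6.8 to 24.5 (STZ-A10), 132 to 465 (A10-FMT) and 7.68 to 57.9 (Con-FMT). Terminal components known mainly from the liver were low, with a highest library of 1.52 RPKM for C8g, 1.29 for C9, 1.12 for C8a, 0.71 for C8b and 0.56 for Hc, the gene of C5. Of these, C9 was 0 in every STZ and STZ-A10 library and had a mean of 0.767 RPKM in Con. The terminal components C6 and C7 reached 10.85 and 1.55 RPKM, in STZ-A10 replicates 3 and 1. Over the 18 libraries, none of the 8 members tested correlated with Alb after adjustment. The Pearson r of the centred log2 values ran from -0.50 for C1qc (Spearman rho -0.50, permutation p 0.0335 and 0.0383, adjusted 0.125 and 0.198) to 0.081 for Cfb (rho 0.077, permutation p 0.748 and 0.763, adjusted 0.827 and 0.814). These are 8 of 32 relations computed, adjusted together.

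Of the members, C3 was the most abundant transcript, with a mean of 279 RPKM over the 18 libraries. The C1q chains followed at 132 (C1qa), 124 (C1qc) and 121 (C1qb) RPKM, then Cfp at 77.7, C4b at 51.6 and Cfb at 43.4. The receptors were near the bottom of the scale, C5ar1 at 1.12 RPKM and C3ar1 at 0.232. Variation between libraries was smallest for Cfp, with a coefficient of variation of 16.5%, and was 21.4% to 24.5% for the C1q chains, 28.5% for C3, 28.9% for C4b and 36.6% for Cfb. For C3ar1 and C5ar1 it was 63.7% and 74.3%. C3ar1 did not reach 1 RPKM in any library and was not tested, and C5ar1 reached it in 6 of 18, so 8 of the 9 members were tested among 12905 genes.

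**Figure D1:**
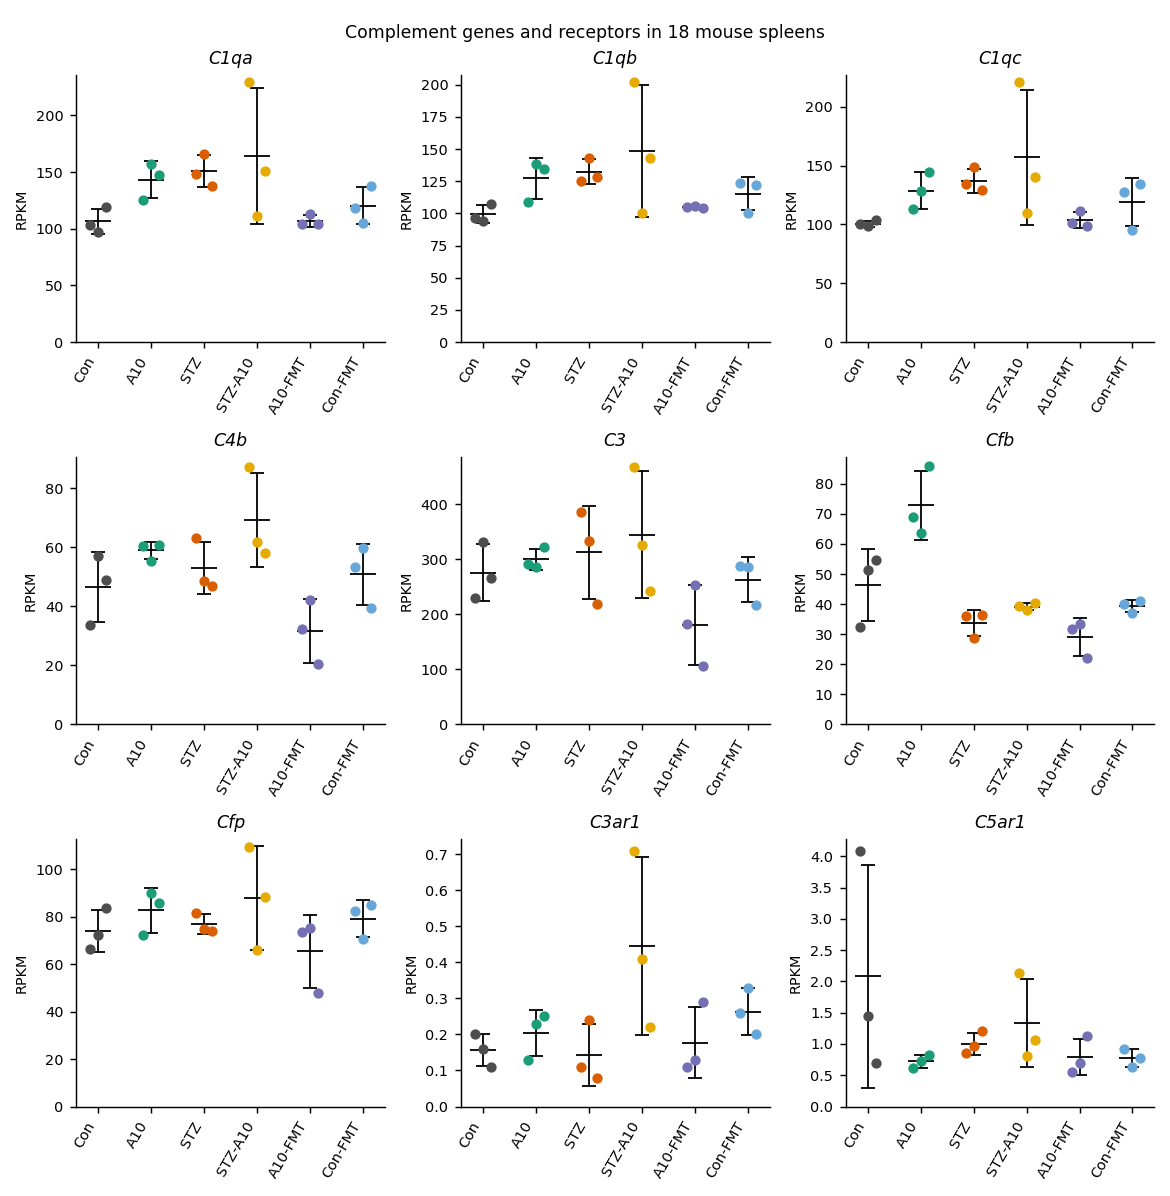
RPKM of the 9 genes on the y axis, by group on the x axis, with 1 point per spleen library and the bars showing the mean and SD (n = 3 per group). The C1q chains share the pattern led by STZ-A10 replicate 1, Cfb is highest in A10 (63.8 to 85.8 RPKM), and the receptors stay below 5 RPKM.

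The 3 C1q genes lie side by side on chromosome 4 of the GRCm38 build, all on the minus strand and all annotated as protein coding by GENCODE. C1qb spans 136880129 to 136886187, C1qc 136889804 to 136893065 and C1qa 136895917 to 136898803, within 18675 bases in all. The bases before the starts of C1qb and C1qc are shown because these genes were measured at nearly the same level in every library. They come from RefSeq (GRCm38.p6), which had an entry for 6 of the 9 members, and run 5′ to 3′ on the strand of the gene. The C1qb stretch is chr4:136886201-136886450, and the C1qc stretch, chr4:136893066-136893164, ends just before the GENCODE start of the gene. Capitals mark matches, on either strand, to a kappa B motif (GGGA and CC with any 4 bases between) or to the PU.1 type ETS motif (GAGGAA).
C1qb: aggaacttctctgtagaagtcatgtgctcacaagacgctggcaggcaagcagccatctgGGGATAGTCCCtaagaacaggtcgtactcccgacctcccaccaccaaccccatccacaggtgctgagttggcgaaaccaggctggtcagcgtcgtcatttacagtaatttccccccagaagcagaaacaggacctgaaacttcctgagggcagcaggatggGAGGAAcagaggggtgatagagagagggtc
C1qc: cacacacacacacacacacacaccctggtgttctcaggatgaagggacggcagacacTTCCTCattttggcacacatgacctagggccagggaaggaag

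The PU.1 type motif, named for a transcription factor of myeloid cells, was found in both stretches, 24 bases before the end of the C1qb stretch and 36 before the end of the C1qc stretch, on opposite strands. It is short and common, and 23.3% of 32817 promoter windows of 250 bases and 9.9% of windows of 99 bases held it. The kappa B motif occurred in C1qb only, as overlapping matches on both strands, and in 17.6% of windows of 250 bases. The STAT motif (TTCNNNGAA), held by 7.01% of windows of 250 bases, and the core of the interferon-stimulated response element (GAAA repeated after any 2 bases), held by 2.97%, had no match in either stretch. A match describes letters and shows no binding.

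C1qa was 103, 97 and 119 RPKM in Con, 126, 157 and 147 in A10, and 148, 166 and 138 in STZ. In STZ-A10 it was 229, 112 and 151, in A10-FMT 104, 113 and 104, and in Con-FMT 118, 105 and 138. Every A10 and STZ library thus lay above every Con library, the A10-FMT libraries were close to Con, and STZ-A10 replicate 1 was the highest of all.

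C1qb was 96.4, 94.5 and 108 RPKM in Con, 109, 138 and 135 in A10 and 125, 143 and 129 in STZ. It was 202, 100.4 and 143 in STZ-A10, 105, 105 and 104 in A10-FMT and 124, 100.3 and 122 in Con-FMT. C1qc was 100.4, 98.4 and 103 RPKM in Con, 113.5, 129 and 144 in A10, 134, 149 and 129 in STZ, 221, 109.8 and 140.5 in STZ-A10, 101, 111 and 98.8 in A10-FMT and 127, 95.6 and 134 in Con-FMT. The 3 chains had the same order of group means, from STZ-A10 through STZ, A10, Con-FMT and A10-FMT down to Con, and no neighbours in that order were free of overlap.

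The chains stayed in a nearly fixed ratio. C1qa over C1qb ran from 0.958 to 1.18 over the 18 libraries, with a mean of 1.08 ± 0.0619 (SD, n = 18), and C1qc over C1qb from 0.93 to 1.10, with a mean of 1.02 ± 0.0545. Their sum moved more, from 289.9 RPKM in a Con library to 653 in STZ-A10 replicate 1. Per group it was 307 ± 20.9 RPKM in Con, 400 ± 44.4 in A10, 420 ± 33.1 in STZ, 470 ± 168 in STZ-A10, 315 ± 12.2 in A10-FMT and 355 ± 48.0 in Con-FMT (SD, n = 3 each).

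The effect of streptozotocin was read from STZ against Con. On the log2(RPKM + 1) scale, C1qa was higher by 0.50 (SE 0.19), C1qb by 0.41 (SE 0.18) and C1qc by 0.44 (SE 0.19), and none passed the adjusted threshold of 0.05, with adjusted p from limma of 0.311, 0.413 and 0.399. Cfb was lower, at -0.41 (SE 0.19, adjusted p 0.422). Of the 8 members tested 0 passed, as did 0.163% of all genes, and these 4 reached an unadjusted p under 0.05, as did 11.1% of all genes. The median log2 fold change was 0.18 over the members and -0.011 over all genes. In 3 of the 8, the C1q chains, the libraries of the groups did not overlap, as in 12.8% of all genes. The other estimates were 0.20 for C4b, 0.16 for C3, 0.06 for Cfp and -0.47 for C5ar1. With Con replicate 1 and A10-FMT replicate 3 both left out, C1qa, C1qb and C1qc were higher by 0.48, 0.39 and 0.44, Cfb was lower by -0.64 and passed (adjusted p 0.0177), and C4b (-0.010) and Cfp (-0.018) changed sign. C3 was then at 0.033.

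STZ and STZ-A10 together were then set against Con and A10, 6 libraries against 6. C1qa, C1qb and C1qc were higher by 0.32 (SE 0.14), 0.29 (SE 0.13) and 0.34 (SE 0.14), with adjusted p of 0.223, 0.244 and 0.196 from limma. Without STZ-A10 replicate 1, which held the most of all 3 chains, these values were 0.18, 0.17 and 0.20. Only 1 of the 8 members, Cfb, passed, against 3.3% of all genes, while 4 had an unadjusted p under 0.05, as did 18.2% of all genes. The median log2 fold change was 0.18 over the members and -0.022 over all genes.

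Macrophage markers moved alongside C1q. Of 16 genes of red pulp and other macrophages, all tested, 3 rose in STZ and STZ-A10 against Con and A10 (Cd163 by 0.83, Vcam1 by 0.51 and Mertk by 0.50) and 0 fell. In STZ against Con, 15 of the 16 had a higher estimate and 0 passed. The libraries' summed RPKM of the list spanned 662 to 884 (Con), 759 to 827 (A10), 886 to 952 (STZ), 879 to 1228 (STZ-A10), 518 to 715 (A10-FMT) and 717 to 946 (Con-FMT). How far macrophage number accounts for C1q was not tested. Over the 18 libraries, the mean of their centred log2 values correlated with C1qa (Pearson r 0.86, Spearman rho 0.78, permutation p 1e-05, the smallest that 100000 permutations can give, and 0.00027, adjusted 0.00032 and 0.00864 over 32 relations). For C1qb r was 0.78 and rho 0.68 (permutation p 0.0001 and 0.0026, adjusted 0.00107 and 0.0238), and for C1qc 0.81 and 0.72 (permutation p 4e-05 and 0.00121, adjusted 0.00064 and 0.0194). These relations held within groups, where r was 0.84, 0.75 and 0.72, and without the 2 libraries farthest from the median, STZ-A10 replicates 1 and 3, where it was 0.76, 0.59 and 0.67.

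Read against Csf1r, the receptor that macrophages need to survive, the C1q sum varied less. Its ratio to Csf1r was 5.75 ± 0.549 in Con, 6.44 ± 0.467 in A10, 6.02 ± 0.533 in STZ, 5.73 ± 0.798 in STZ-A10, 7.47 ± 0.715 in A10-FMT and 6.43 ± 0.469 in Con-FMT (SD, n = 3). All A10-FMT libraries (6.76 to 8.19) lay above all libraries of Con, STZ and STZ-A10, of which the highest was 6.6. They overlapped with those of A10, which reached 6.79, and of Con-FMT, which reached 6.97. The coefficient of variation over the 18 libraries was 12.6%, against 23.1% for the C1q sum. Such a ratio also removes any scaling that the genes of a library share, so the smaller spread does not show what accounts for C1q. Macrophage genes also headed the likeness to C1q among 9355 non-members with a mean of at least 5 RPKM. The phagosomal transporter gene Slc11a1 was most like C1qa (r = 0.84 over 18 libraries, 0.87 without centring) and C1qb (0.85 and 0.87), with Lgmn also close to C1qa (0.83 and 0.87) and Cd5l and Fcna following for C1qb. For C1qc the closest were Lgmn (0.83 and 0.88), Slc11a1 and Pla2g7. Cd5l is itself on the macrophage list.

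**Figure D2:**
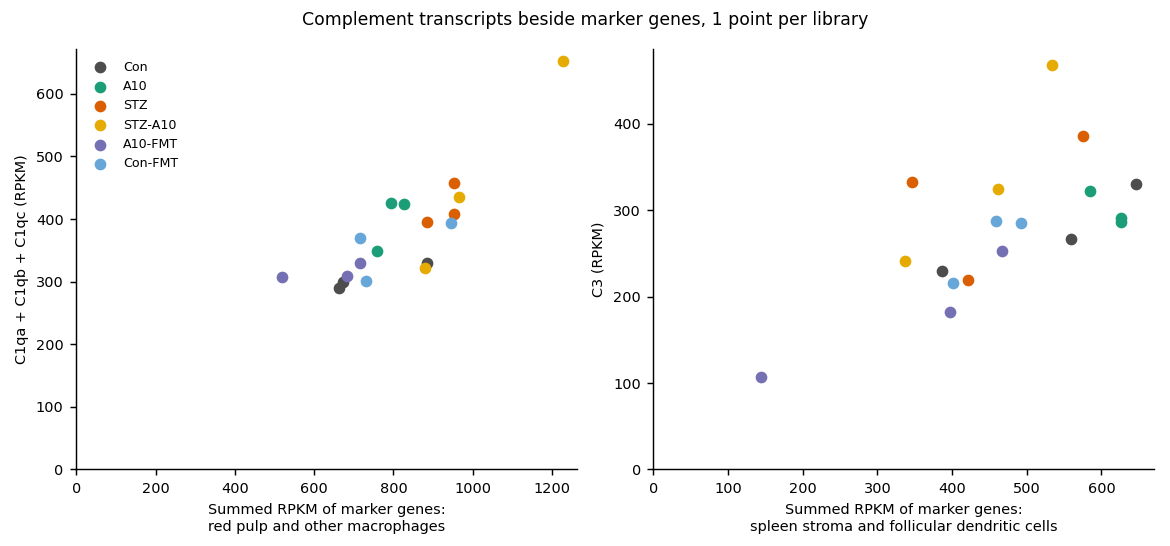
Left, the sum of C1qa, C1qb and C1qc against the summed RPKM of 16 macrophage markers, and right, C3 against the summed RPKM of 12 stroma and follicular dendritic cell markers, both axes in RPKM, 1 point per library, coloured by group. The C1q sum follows the macrophage markers, with STZ-A10 replicate 1 at the upper end, and A10-FMT replicate 3 lies lowest on both axes of the right panel.

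C4b, the gene of the classical pathway component C4, was 33.6, 57.1 and 48.7 RPKM in Con, 60.5, 55.4 and 60.7 in A10, 62.95, 48.6 and 46.9 in STZ, 87.3, 61.9 and 58.1 in STZ-A10, 32.2, 42.25 and 20.3 in A10-FMT and 53.2, 59.7 and 39.5 in Con-FMT. The A10-FMT group had the lowest mean, and its libraries lay below the STZ libraries. C4b lies on chromosome 17 (34728380 to 34743882, minus strand). Its near-identical copy C4a, 65209 bases away, was listed at 0.15 to 0.43 RPKM, and reads from the copies can be split between them, so the levels of both are uncertain.

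C3, the component on which the pathways meet, was 229.7, 331 and 267 RPKM in Con, 291, 286 and 322 in A10, 385, 332 and 219 in STZ, 468, 325 and 241 in STZ-A10, 182, 253 and 107 in A10-FMT and 287, 285 and 216 in Con-FMT. The gene lies on chromosome 17 from 57203970 to 57228136, on the minus strand. A10-FMT replicate 3 was the lowest of the 18, and the A10-FMT libraries overlapped with those of STZ. No neighbours in the order of group means, from STZ-A10 at 345 ± 115 RPKM to A10-FMT at 181 ± 73.0 (SD, n = 3), were free of overlap.

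Whether a transplant from AOS donors alters the spleen of STZ mice was asked by setting A10-FMT against STZ. All 8 members had a lower estimate in A10-FMT, and 0 passed the adjusted threshold, against 0.00775% of all genes. The signs stayed after median centring and quantile normalization, but centring left C5ar1, Cfb and Cfp near 0, at -0.00067, -0.056 and -0.084. At an unadjusted p under 0.05 there were 3 of 8, against 17.2% of all genes, of which 1964 were lower and 252 higher. C3 was at -0.83 (SE 0.29, adjusted p 0.243, limma), C4b at -0.77 (SE 0.25, adjusted p 0.228) and C1qa at -0.49 (SE 0.19, adjusted p 0.257). The groups did not overlap for 4 of 8, C1qa, C1qb, C1qc and C4b, as in 14.4% of all genes. The median was -0.37 over the members and -0.15 over all genes, and after median centring C3, C4b and C1qa were at -0.66, -0.60 and -0.32. Without A10-FMT replicate 3, C3 was at -0.50 and C4b at -0.49. With Con replicate 1 left out as well, Cfb was at -0.043 and Cfp at -0.045. C1qb, C1qc, Cfp, Cfb and C5ar1 were at -0.33, -0.40, -0.25, -0.23 and -0.17. Of the 16 macrophage markers all had a lower estimate here (median -0.58, 0 past the threshold), as did 10 of 12 stroma markers (median -0.55, 0 past the threshold).

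Con-FMT, the transplant control, was compared with STZ in the same way, so the comparisons share the STZ libraries. Here 0 of 8 members passed, against 0.00775% of all genes, and 0 reached an unadjusted p under 0.05, against 5.24% of all genes. C1qa and C1qb (lower) and Cfb (higher) did not overlap between the groups, 3 of 8, as in 13.2% of all genes. The estimates were -0.33 for C1qa, -0.20 for C1qb, -0.22 for C1qc, -0.22 for C3, -0.06 for C4b and 0.22 for Cfb, and the 95% interval of C1qa ran from -0.74 to 0.083. The median was -0.19 over the members and 0.0016 over all genes.

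The transplant groups were then set against each other. Of the 8 members 0 passed, as did 0% of all genes, and 2 reached an unadjusted p under 0.05, against 23.6% of all genes. C4b was at -0.71 (SE 0.25, adjusted p 0.204) and Cfb at -0.45 (SE 0.19, adjusted p 0.204, limma) in A10-FMT relative to Con-FMT, which became -0.43 and -0.27 without A10-FMT replicate 3. Only Cfb did not overlap, 1 of 8, as in 29.3% of all genes. The median was -0.24 over the members and -0.17 over all genes. As deposited 1 member was higher and 7 were lower, and after median centring 3 were higher and 5 lower, with C1qa at 0.011 and C1qb at 0.044.

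From library to library, C3 and C4b moved with stroma markers. Their own Pearson r over the 18 libraries was 0.89 (0.93 without centring), while that of C3 with C1qa was 0.28. With the mean of 12 stroma and follicular dendritic cell markers, C3 had an r of 0.82 and a rho of 0.67 (permutation p 0.00021 and 0.00298, adjusted 0.00168 and 0.0238) and C4b an r of 0.75 and a rho of 0.43 (permutation p 0.00053 and 0.0764, adjusted 0.00339 and 0.235). Within groups r was 0.88 and 0.89, and without A10-FMT replicate 3 and Con replicate 2 it was 0.62 and 0.58. The libraries' summed RPKM of these markers spanned 387 to 646 (Con), 584 to 626 (A10), 346 to 576 (STZ), 337 to 534 (STZ-A10), 144 to 467 (A10-FMT) and 402 to 492 (Con-FMT). The group comparisons did not always show the same relation. In STZ and STZ-A10 against Con and A10, the markers had a median of -0.16, while C3 was at 0.15 and C4b at 0.20. In A10-FMT against STZ, C3, C4b and the median of the markers were all lower. Among non-members, Syde1 and Kank2 (r = 0.93 for each) and Smim19 (0.92) were most like C3, and Csnk1e (0.92), Tnks1bp1 (0.90) and Tspan3 (0.88) most like C4b.

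Cfb, which encodes the protease of the alternative pathway, was the 1 member to pass a test. It was 32.5, 51.4 and 54.8 RPKM in Con, 68.9, 63.8 and 85.8 in A10, 36.2, 28.8 and 36.5 in STZ, 39.2, 37.9 and 40.4 in STZ-A10, 31.7, 33.5 and 21.98 in A10-FMT and 40.2, 37.1 and 41.1 in Con-FMT. The 3 A10 libraries were the highest of the 18, and all 12 libraries of STZ-injected mice lay at or below 41.1 RPKM. Among the 6 uninjected libraries only Con replicate 1, the library with the most neutrophil RNA, was within that range. The group means were 72.8 ± 11.5 in A10, 46.3 ± 12.0 in Con, 39.4 ± 2.07 in Con-FMT, 39.2 ± 1.25 in STZ-A10, 33.8 ± 4.37 in STZ and 29.1 ± 6.21 in A10-FMT (SD, n = 3). In that order, A10 did not overlap with Con nor STZ-A10 with STZ, and the other neighbours did.

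In STZ and STZ-A10, Cfb fell by 0.64 on the log2 scale relative to Con and A10 (SE 0.13, 95% interval -0.92 to -0.36, adjusted p 0.0192, limma), from 59.6 ± 18 to 36.5 ± 4.11 RPKM (SD, n = 6). Its adjusted p was 0.0563 without Con replicate 2, 0.056 without A10 replicate 3 and 0.0633 without STZ replicate 2, with log2 fold changes of -0.59, -0.58 and -0.59. With Con replicate 1 and A10-FMT replicate 3 both left out, it was -0.76 (adjusted p 0.00035). In the test for any difference among the 6 groups, Cfb again was the 1 member of 8 to pass (adjusted p 0.04), as did 0.449% of all genes, and 3 members, C1qa, C4b and Cfb, reached an unadjusted p under 0.05, as did 22.6% of all genes. That call was lost when a single library was left out in 13 of 18 cases.

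**Figure D3:**
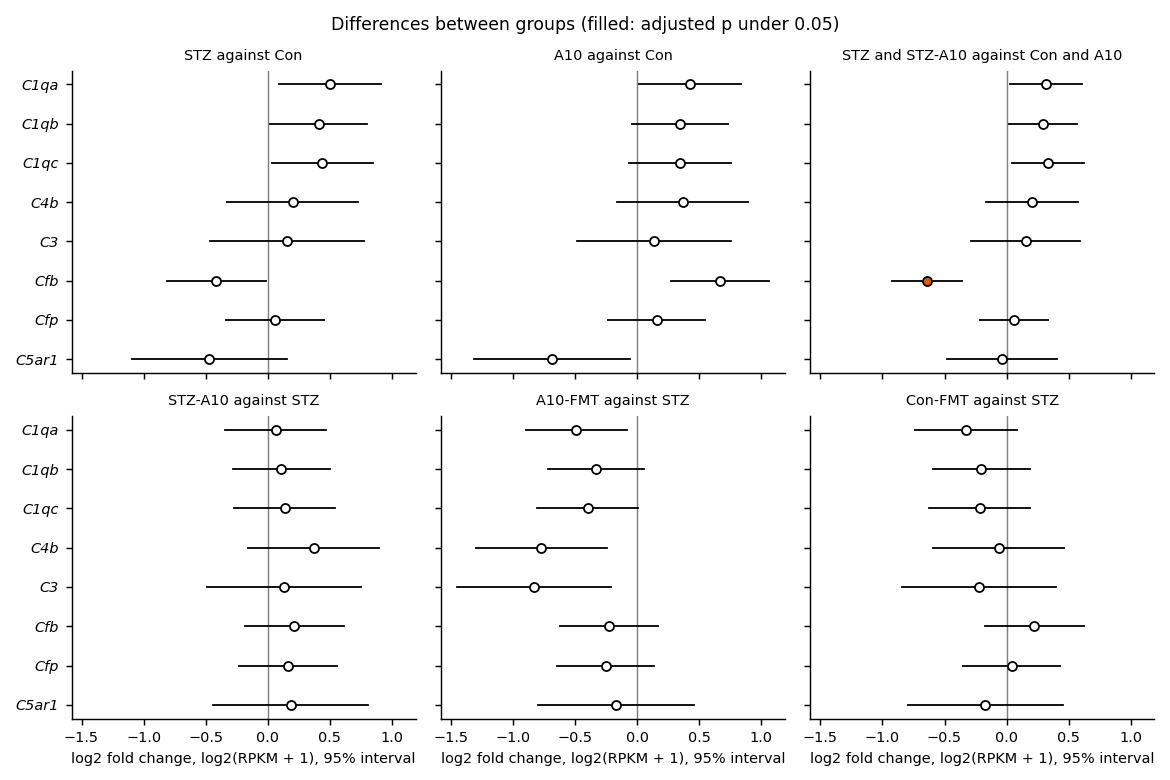
Log2 fold changes of the 8 members tested (x axis, log2(RPKM + 1) scale) with 95% intervals in 6 comparisons, 1 panel each, filled where the adjusted p was under 0.05. The filled point is Cfb in STZ and STZ-A10 against Con and A10, at -0.64.

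AOS without STZ was examined in A10 against Con. Cfb was higher by 0.67 (SE 0.19, adjusted p 0.46, limma), and by 0.44 without Con replicate 1. C1qa was higher by 0.43 (SE 0.19, adjusted p 0.938), C1qb and C1qc by 0.35 each, and C5ar1 lower at -0.69 (SE 0.29, adjusted p 0.883). Of 8 members 0 passed, against 0.00775% of all genes, and 3 reached an unadjusted p under 0.05, against 5.25% of all genes. The groups did not overlap for 4 of 8, the C1q chains and Cfb, as in 16.5% of all genes. The estimates for C4b, Cfp and C3 were 0.37, 0.16 and 0.13, and the median was 0.35 over the members and 0.046 over all genes. With Con replicate 1 and A10-FMT replicate 3 both left out, C4b, Cfp and C3 were at 0.15, 0.083 and 0.011.

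STZ-A10 was compared with STZ for AOS in STZ mice. All 8 members had a higher estimate, from 0.06 for C1qa to 0.37 for C4b, with a median of 0.15 against 0.034 over all genes, and 0 passed, against 0.00775% of all genes. At an unadjusted p under 0.05 there were 0, against 2.93% of all genes, and only Cfb did not overlap, 1 of 8, as in 8% of all genes. The interaction, which asks whether AOS differs in effect with and without STZ, had 0 of 8 members past the threshold, against 0% of all genes, and 0 at an unadjusted p under 0.05, against 2.86% of all genes. For Cfb the interaction was -0.45 (SE 0.26, adjusted p 1.00), with a 95% interval of -1.01 to 0.11, and for C5ar1 0.87 (SE 0.42, adjusted p 1.00) or 0.43 with Con replicate 1 and A10-FMT replicate 3 both left out.

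Cfb lies on chromosome 17 (34856374 to 34862518, minus strand), 85 bases from C2, whose protein has the corresponding role in the classical pathway and which is on the same strand. On its other side Nelfe lies 1 base away, on the plus strand. The sources do not say how reads shared by neighbouring genes were assigned. C2 was 16.2 ± 4.37 RPKM in Con, 20.9 ± 2.73 in A10, 13.0 ± 2.53 in STZ, 15.5 ± 2.40 in STZ-A10, 10.1 ± 3.44 in A10-FMT and 16.2 ± 2.17 in Con-FMT (SD, n = 3), so A10 led and A10-FMT was last for both genes. In STZ and STZ-A10 against Con and A10, C2 was at -0.34 (SE 0.16, adjusted p 0.266, limma). Cfb over C2 was 3.48 ± 0.249 in A10 and 2.47 ± 0.459 to 2.96 ± 0.453 in the other groups.

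The liver also makes factor B, and Alb was lower in STZ and STZ-A10 than in Con and A10 (-3.68, SE 0.69, adjusted p 0.0114). The part of liver RNA in the Cfb result was not tested. In Con replicates 1 to 3, Cfb of 32.5, 51.4 and 54.8 RPKM came with 7.59, 105 and 97.95 RPKM of Alb. No STZ or STZ-A10 library held more than 40.41 RPKM of Cfb or 2.79 of Alb. The highest Cfb, 85.8 RPKM in A10 replicate 3, came with 2.84 RPKM of Alb, and the lowest, 21.98 in A10-FMT replicate 3, with 175. The genes most like Cfb were Nek7 (r = 0.88 over 18 libraries, 0.90 without centring), Dnajb9 (0.88 and 0.94) and Gfpt1 (0.88 and 0.92).

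**Figure D4:**
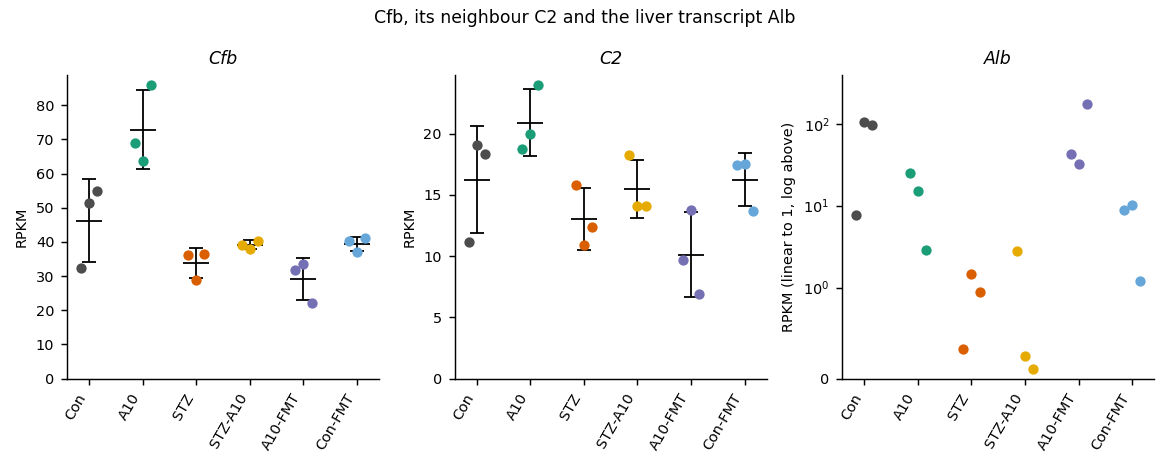
RPKM of Cfb, C2 and Alb by group, 1 point per library (n = 3 per group), with the mean and SD as bars for Cfb and C2, and Alb on an axis that is linear to 1 and logarithmic above. A10 has the highest mean of Cfb and C2. Alb is highest in A10-FMT replicate 3 at 175 RPKM, where both are lowest, and is low in STZ and STZ-A10.

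Cfp, the gene of properdin, lies on chromosome X (20925454 to 20931555, minus strand) and was the steadiest member. It was 66.3, 72.25 and 83.5 RPKM in Con, 72.1, 90.2 and 85.9 in A10, 81.6, 74.7 and 74.1 in STZ, 109, 65.9 and 88.4 in STZ-A10, 73.4, 75.3 and 47.8 in A10-FMT and 82.3, 70.5 and 84.9 in Con-FMT. All neighbouring groups overlapped, and the largest estimate in any comparison of group pairs was -0.30 (SE 0.18, adjusted p 0.289, limma), in A10-FMT against Con-FMT. Its r with the macrophage markers was 0.67 and its rho 0.58 (permutation p 0.00203 and 0.0139, adjusted 0.0108 and 0.0891), or 0.40 without STZ-A10 replicates 1 and 3. Sorbs3 (0.82), Tgm1 (0.81) and the endothelial gene Cldn5 (0.80) were most like it over 18 libraries.

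The receptors were scarce. C3ar1 (chromosome 6, 122847138 to 122856161, minus strand), which binds C3a, was 0.2, 0.16 and 0.11 RPKM in Con, 0.13, 0.23 and 0.25 in A10, 0.11, 0.24 and 0.08 in STZ, 0.71, 0.41 and 0.22 in STZ-A10, 0.11, 0.13 and 0.29 in A10-FMT and 0.26, 0.33 and 0.2 in Con-FMT. The highest value was in STZ-A10 replicate 1, which also led for C1q, and at this depth no order of the groups can be read.

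C5ar1 (chromosome 7, 16246743 to 16259540, minus strand), the C5a receptor of neutrophils and macrophages, was 4.09, 1.45 and 0.7 RPKM in Con, 0.62, 0.73 and 0.82 in A10, 0.85, 0.96 and 1.2 in STZ, 2.14, 0.81 and 1.06 in STZ-A10, 0.56, 0.69 and 1.12 in A10-FMT and 0.92, 0.64 and 0.77 in Con-FMT. Con replicate 1 stood above all others, and all group neighbours overlapped. Without it and A10-FMT replicate 3, the estimate in A10 against Con went from -0.69 to -0.25 and in STZ against Con from -0.47 to -0.031. The 12 neutrophil genes summed to 15080 RPKM in that library, 4126 in Con replicate 2 and 814 in Con replicate 3, while the libraries of the other groups lay between 439 and 1725. Over 18 libraries C5ar1 correlated with their mean at r = 0.74 and rho = 0.30 (permutation p 0.00837 and 0.22, adjusted 0.0383 and 0.42). Without Con replicates 1 and 2, the farthest from the median, r was 0.076, so the relation rests on these libraries. Its closest genes were the neutrophil genes Fpr2 (0.91), Hp (0.90) and Chil3 (0.89).

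The other complement genes were read as a list of 49, of which 48 were in the table and 31 were tested. In STZ and STZ-A10 against Con and A10, 3 of 31 passed (C6, Cfd and C5ar2), with 3.3% of all genes. This count includes C5ar2, whose call is not read as a difference below, so it is not weighed against that share. In the other 8 comparisons 0 of 31 passed. C6, a component of the membrane attack complex, rose. It was 7.35 ± 0.888 RPKM in STZ and 9.06 ± 2.91 in STZ-A10, against 4.38 ± 0.802 in Con and 5.33 ± 0.615 in A10 (SD, n = 3), higher by 0.63 (SE 0.14, adjusted p 0.0286, limma). C5ar2, a further receptor for C5a, was 1.51 ± 0.251 RPKM in STZ, 1.19 ± 0.42 in STZ-A10, 0.47 ± 0.135 in Con and 0.217 ± 0.127 in A10. It reached 1 RPKM only in libraries of STZ-injected mice and so entered the test through them, and without the filter on low values its adjusted p was 0.0661, so its call is not read as a difference. Cfd (adipsin), the fat-derived protease that activates factor B, fell. It was 2.80 ± 1.97 RPKM in STZ, 14.5 ± 10.9 in STZ-A10, 34.7 ± 26.9 in Con and 55.5 ± 28.3 in A10, lower at -2.46 (SE 0.64, adjusted p 0.0484).

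The calls of C6 and Cfd depended on single libraries, and their adjusted p rose to at most 0.0811 for C6 (without STZ replicate 2) and 0.124 for Cfd (without Con replicate 2). Over all the alternative fits listed below, the call was lost in 7 of 27 for C6 and in 15 of 26 for Cfd. Adipocyte genes moved with Cfd, since 6 of the 6 tested fell in the same comparison and their summed RPKM spanned 10.7 to 25.5 (STZ), 25.9 to 79.9 (STZ-A10), 38.7 to 207 (Con) and 111 to 353 (A10). Their part in the result was not tested.

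By role, the most abundant of the other genes were Fcna, a macrophage lectin of the lectin pathway, at a mean of 66.9 RPKM, Cfd at 27.9 in the alternative and terminal pathway, the regulator Clu (clusterin) at 469.9 and Cr2, the complement receptor of B cells and follicular dendritic cells, at 100.4. In STZ and STZ-A10 against Con and A10, 0 of 10 classical and lectin pathway genes and 0 of 11 regulators passed. Of the alternative and terminal genes 2 of 4 passed, and of the receptors 1 of 6, beside the 3.3% of all genes. That receptor was C5ar2, whose call is not read as a difference. Clu and Cr2 were lowest in A10-FMT replicate 3, at 113 and 25.6 RPKM, as were C3, C4b, Cfb and Cfp.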

How the data were processed

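Spleen RNA of 18 mice, 3 per group, was examined as 1 table of RPKM that the authors deposited. According to the methods of the study, reads were aligned to reference genes with SOAPaligner, while the submitters' processing notes name Bowtie 0.12.2 and mm10, so the aligner behind the deposited RPKM is not settled. Of 19326 lines, 6 with repeated names were left out, and 22 names had become dates. Groups came from the sample labels, and all columns were mapped.

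Differences were tested with limma 3.58.1 (trend, R 4.3.3) on log2(RPKM + 1), with 1 coefficient per group over all 18 libraries, for genes with an RPKM of at least 1 in 3 libraries. P-values were two-sided and adjusted by the Benjamini-Hochberg method over 12905 genes in each of 9 comparisons. Nothing states that the 3 libraries of a group came from separately kept animals, so p-values measure the spread between these libraries. Correlations used log2 values minus the library median, with 100000 permutations. The code was tested on simulated data. Positions are from GENCODE M21 by symbol.

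Every member is named. Of other complement genes, those past the threshold (up to 3 per direction and comparison) and the most abundant of each role are named, with up to 3 genes most like each member, of which 1 is not reported here. Members and lists were chosen with earlier results of these data known. Alternatives were other scalings, pseudocounts, filters and weights, fits of the compared groups, a replicate block and leaving out each library.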

Additional observations from a re-analysis of the deposited data

How the results depend on the processing

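Only 19 log2 fold changes were followed through all the alternatives, those of members with an unadjusted p under 0.05 and of other complement genes past the threshold. These kept their direction (510 of 510 fits), which says nothing of the smaller estimates. The smaller estimates of members were recomputed only with median centring, with quantile normalization and without Con replicate 1 and A10-FMT replicate 3. Among those, C4b in STZ against Con went from 0.20 to -0.010 without Con replicate 1 and A10-FMT replicate 3. C1qa in A10-FMT against Con-FMT went from -0.16 to 0.011 after median centring. Of the counts of members past the threshold, 213 of 242 stayed the same. The main counts were 0 or 1, so most of these are 0 staying at 0 and say little of stability. In the test of any difference, 9 of 26 stayed the same. Limma's default array weights did not converge, so weights were estimated gene by gene, a choice made after seeing the data. They ran from 0.112 for A10-FMT replicate 3 to 7.37 for A10-FMT replicate 1 and called up to 9970 genes. With them, 4 members passed in STZ against Con, 3 in A10 against Con, 4 in A10-FMT against STZ, 1 in Con-FMT against STZ, 3 in A10-FMT against Con-FMT, 2 in STZ and STZ-A10 against Con and A10, and 7 in the test of any difference among the groups. Leaving out Con replicate 1 and A10-FMT replicate 3 together, an alternative also added after seeing the data, gave 1 member (Cfb) in STZ against Con and 294 genes in all. In the test of any difference, no filter on low values gave 0 members.

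With single libraries left out, the count ran from 0 to 2 in A10-FMT against Con-FMT (2, C3 and C4b, without A10-FMT replicate 2), from 0 to 2 in STZ and STZ-A10 against Con and A10 (2, C1qb and Cfb, without STZ-A10 replicate 2) and from 0 to 2 in the test of any difference (2, C4b and Cfb, without A10-FMT replicate 2). In the other comparisons it stayed at 0. Cfb in STZ and STZ-A10 against Con and A10 ran from -0.76 to -0.57. In STZ against Con it was -0.64 without Con replicate 1 and -0.28 without Con replicate 3, and C5ar1 in A10 against Con was -1.04 without Con replicate 3 and -1.08 with a pseudocount of 0.1. C5ar2 in STZ and STZ-A10 against Con and A10 was 1.79 with that pseudocount, and C6 was 0.42 with array weights. The number of all genes called in that comparison ran from 122 without STZ replicate 2 to 4969 with array weights, against 426. The causes were not tested.

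The replicate number as a block gave 1 member, Cfb, in STZ and STZ-A10 against Con and A10 and 0 in the test of any difference. Same-numbered libraries of different groups deviated together with a median correlation of 0.0441 (-0.385 to 0.571 over 45 pairs). For differently numbered libraries it was -0.00941 (-0.584 to 0.511 over 90 pairs). Of the 18 libraries, 9 correlated best with 1 of their own number. These values were not tested, so whether the numbers pair the samples is not settled. Depth is unknown without read counts, which limits C3ar1 and C5ar1 most.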
